A study of Mus musculus with 18 samples.

Results

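Libraries labelled Zmat1 knockout (KO) and libraries labelled wild type (WT) were compared in mouse bone marrow-derived macrophages (BMDMs) that had received no RANKL. The comparison takes 6 of the 18 libraries of the series, 3 with each label, and they were chosen by label and day alone. Marrow cells were grown with M-CSF. The remaining libraries had RANKL for 1 or 3 days, and they entered the filter and the estimate of the spread of the day 0 test, but their levels are not part of the day 0 difference. Per the methods of the study, the mice were C57BL/6 animals of 4 to 8 weeks from crosses between heterozygotes, and the deletion was global, so it is carried by every cell type of the marrow and not by macrophages alone. The labels do not say whether libraries with one label came from separate animals, so p-values measure only the spread between these libraries. The 6 libraries held 13860786 to 15141310 counts each, and 14241 of 34745 genes passed the filter on low counts over the whole series and were tested.

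BMDMs are macrophages and macrophage precursors that marrow progenitors form under M-CSF, the growth factor of this lineage. They become bone-resorbing osteoclasts only once RANKL binds its receptor RANK, so the libraries without RANKL show the starting population. Zmat1 encodes a zinc finger protein of the matrin type. Cultures taken directly from marrow can also hold other cells, such as neutrophils and their precursors, megakaryocytes and stromal cells, until these die or are washed away. In bulk libraries, fewer cells of a type and less RNA per cell cannot be told apart.

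The targeted gene was examined first. Zmat1 had 49, 99 and 59 counts in the libraries labelled KO and 91, 32 and 43 in those labelled WT. The 2 sets overlapped, and the fitted log2 fold change, given throughout as KO label minus WT label, came to 0.24 ± 0.41 (SE; edgeR, adjusted p = 0.930). Counts at the gene level therefore did not separate the labels. Per the methods of the study, the genotype of the mice was determined by PCR on tail DNA. The study also measured Zmat1 mRNA in BMDMs of both genotypes by quantitative PCR. Which exons were deleted is not given in the sources used here, and exon levels were not analysed, so the groups are called by their labels throughout.

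The libraries were macrophage-like in both groups. All 22 genes of a macrophage list were tested, none was called (adjusted p under 0.05) or passed the unadjusted threshold described below with all 6 libraries, and the median log2 fold change was -0.04, against 0.02 over all 14241 genes. Lyz2, the lysozyme of macrophages and granulocytes, was the most abundant of them at 19833 to 50203 CPM, the count scaled to library size with TMM factors. Csf1r, the receptor for M-CSF, stood at 4241 to 5093 CPM with the KO label and 4140 to 7290 CPM with the WT label.

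The libraries did not group by label alone. On the first principal component of the 6 libraries, which held 53.5% of the variance of log2 CPM, WT day 0 library 3 lay at -49.2, beside KO libraries 1 and 3 at -47.7 and -56.1. KO library 2 lay at 16.1, and WT libraries 1 and 2 at 76.0 and 60.9. A list of stromal and osteoblast genes followed nearly the same order, with a summed level of 4794, 1502 and 4981 CPM in KO libraries 1 to 3 and 142, 697 and 6083 CPM in WT libraries 1 to 3. By correlation of log2 CPM, KO library 1 and WT library 3 were closest to each other (0.976). KO library 2 and WT library 1 were likewise closest to each other (0.968). KO library 3 was closest to KO library 1, and WT library 2 to WT library 1. Counts that change without WT library 3 are also given without it.

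**Figure D1:**
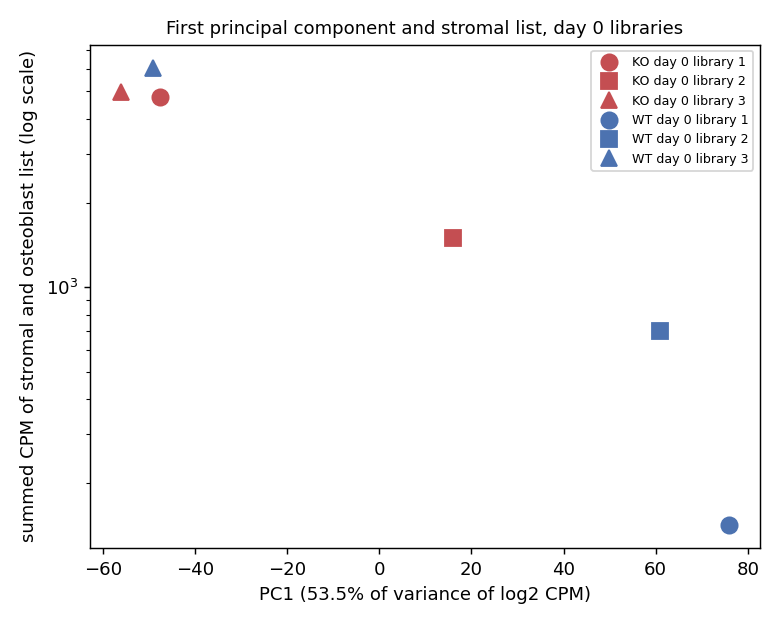
Position of each day 0 library on the first principal component (x axis, unitless; log2 CPM of the 14241 tested genes) against the summed CPM of the stromal and osteoblast list (y axis, log scale). Each point is 1 library, with the KO label in red and the WT label in blue. WT library 3, at -49.2 and 6083 CPM, lies with KO libraries 1 and 3, and WT library 1 lies at the opposite end at 76.0 and 142 CPM.

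Few genes differed between the labels. Of the 14241 tested, 17 were called at an adjusted p under 0.05 (0.119%), 9 of them higher with the KO label (0.0632%) and 8 lower (0.0562%), and all 17 stayed called when WT library 3 was left out. The higher ones were 9930111J21Rik2, Olfr56, Agpat4, Pkd1l2, 5830417I10Rik, Slc36a1, Tpm3, Ublcp1 and Sec22c. The lower ones were Tpm3-rs7, Dclk2, Slc22a4, Nmnat1, Tgtp1, Gm12220, Cgn and Gm13767. A looser threshold took the p-value before adjustment at under 0.05 together with a fold of more than 1.5 up or less than 0.66 down, and it was passed by 562 genes (3.95%), 411 higher (2.89%) and 151 lower (1.06%). For comparison, the 3 libraries of one label lay entirely above or below the 3 of the other for 1441 genes (10.1%), 698 of them higher (4.9%) and 743 lower (5.22%) with the KO label. Without WT library 3 the called genes numbered 197 (1.38%), of which 172 were higher, and the unadjusted threshold took 1629 genes higher (11.4%) and 246 lower (1.73%).

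A fit of only the 6 day 0 libraries, which has fewer libraries to estimate the spread from, called 6 genes (0.0421%), all among the 17. It no longer called Tpm3, Tpm3-rs7, Tgtp1, Olfr56, Slc36a1, Cgn, Gm12220, Pkd1l2, Dclk2, Ublcp1 or Sec22c, though each kept its direction. The library titles are written in 2 styles, with a single or a double hyphen, and no label explains the style. Among the 13 libraries with a single hyphen, which include KO libraries 1 and 3 and WT libraries 2 and 3, 14 genes were called (0.0983%), 11 of them among the 17. The other style holds KO library 2 and WT library 1 on day 0, which allows no test, and all 17 genes differed in the same direction between those libraries as over all 6. Mitochondrial genes held 3.09 and 2.76% of the counts in KO library 2 and WT library 1, against 1.35 to 2.01% in the other day 0 libraries.

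**Figure D2:**
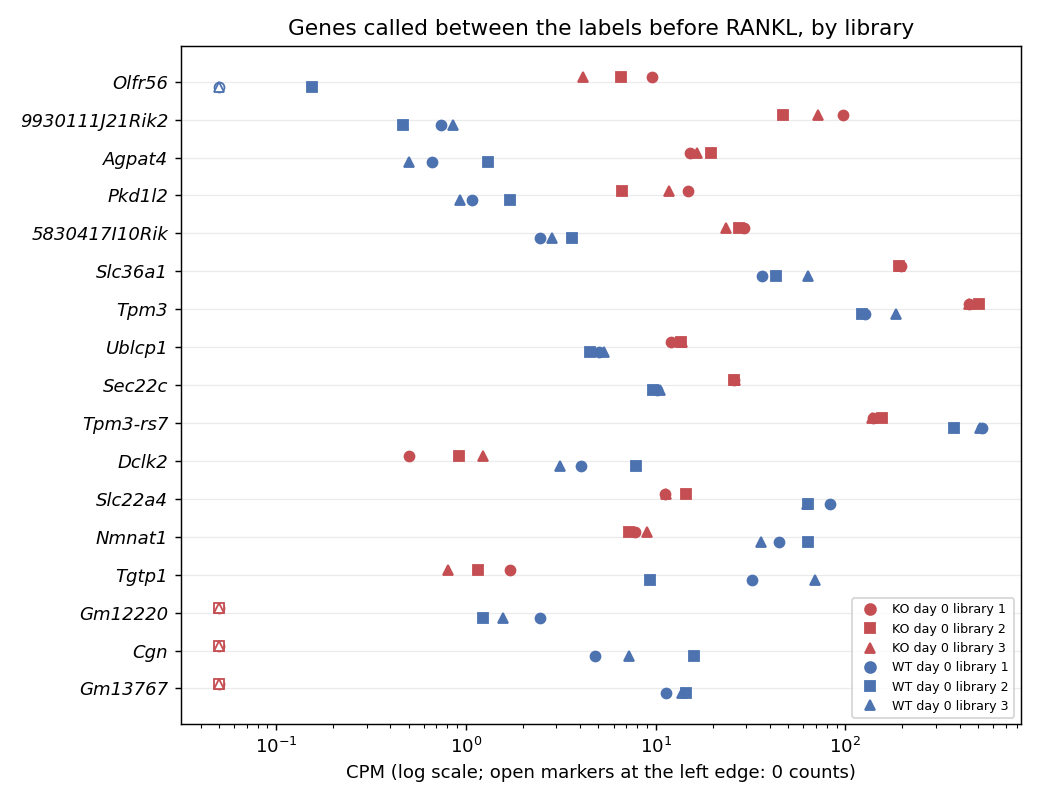
Level of the 17 called genes in each of the 6 day 0 libraries, in CPM on a log scale, with the KO label in red and the WT label in blue and 1 marker shape per library number. Open markers at the left edge are libraries with 0 counts, as for Cgn, Gm12220 and Gm13767 in all 3 KO libraries. The 3 libraries of one label lie apart from the 3 of the other for every gene.

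The most abundant called genes were a pair of near-identical copies. Tpm3, on chromosome 3 (chr3:90072649-90100902, plus strand, GRCm38), encodes a tropomyosin, a coiled-coil protein that lies along actin filaments. Tpm3-rs7 is a related sequence on chromosome 14 (chr14:113314608-113316713, plus strand) with a coding sequence of the same length, 744 bases. The coding sequences of Tpm3-201 and Tpm3-rs7-201 in the GENCODE M21 annotation (GRCm38) differ at 3 bases and are 99.6% identical. The stretch that holds all 3 is shown because it is what separates the pair within the coding sequence. It covers coding bases 8 to 127, and the differing bases are in capitals.
Tpm3: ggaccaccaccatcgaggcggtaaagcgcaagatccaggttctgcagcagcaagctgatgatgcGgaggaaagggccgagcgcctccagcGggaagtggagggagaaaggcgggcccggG
Tpm3-rs7: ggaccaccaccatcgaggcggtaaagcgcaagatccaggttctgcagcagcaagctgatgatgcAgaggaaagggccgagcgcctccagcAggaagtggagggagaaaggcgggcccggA

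Tpm3 stood at 449, 506 and 451 CPM in the libraries labelled KO and at 126, 122 and 185 CPM in those labelled WT (log2 fold change 1.70 ± 0.16, adjusted p = 7.29e-05). Tpm3-rs7 stood at 139, 157 and 137 CPM with the KO label and 527, 372 and 514 CPM with the WT label (log2 fold change -1.71 ± 0.15, adjusted p = 2.85e-05). Both genes separated the labels fully, in opposite directions. The sum of the pair differed by less than the spread between libraries. It was 613 ± 43.0 CPM (SD, n = 3) with the KO label and 616 ± 108 CPM with the WT label. What differed was how the sum was divided, since Tpm3 took 76.3 to 76.6% of it in the KO libraries and 19.3 to 26.4% in the WT libraries. Of the 50-base stretches in the Tpm3-rs7 transcript, 69.5% also occur in Tpm3 transcripts. Of those in Tpm3 transcripts, 76.8% are their own and 23.2% occur in Tpm3-rs7. The counting program and its handling of shared reads are not given in the sources used here, so the split between the copies is uncertain. None of the other 3 tested tropomyosin genes was called with all 6 libraries. Tpm4, the most abundant of those, stood at 304 to 402 CPM with the KO label and 172 to 439 CPM with the WT label. Without WT library 3 it was called (log2 fold change 0.98 ± 0.21, adjusted p = 0.0422), Tpm1 and Tpm2 also passed the unadjusted threshold in the higher direction, and the median of the 5 tropomyosin genes went from 0.57 to 1.60. Of all tested genes, 11.4% passed in that direction in the same fit.

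A cluster of interferon-inducible GTPase genes on chromosome 11 held 3 of the called genes. 9930111J21Rik2 (chr11:49015874-49051242, minus strand) belongs to this group of GTPases, which interferon induces against pathogens that live in vacuoles. It stood at 97.5, 47.0 and 72.1 CPM in the libraries labelled KO and 0.742, 0.464 and 0.858 CPM in those labelled WT. Its log2 difference of 6.69 ± 0.38 came with the smallest adjusted p of the comparison, 3.87e-07 by edgeR. The neighbouring copy 9930111J21Rik1 stood at 41.4, 12.2 and 25.3 CPM with the KO label and 46.1, 47.1 and 84.0 CPM with the WT label, lower in every KO library but not called (log2 fold change -1.17 ± 0.38, adjusted p = 0.502). Their coding sequences are 99.6% identical, with 11 differences over 2532 bases. 9930111J21Rik2 made up 70.2 to 79.4% of the pair in the KO libraries and 0.977 to 1.58% in the WT libraries. The sum was 98.5 ± 39.8 CPM with the KO label and 59.7 ± 21.8 CPM with the WT label, and those ranges overlapped.

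Tgtp1 (chr11:48985327-48994172, minus strand), another GTPase of this family, went the opposite way. It stood at 1.71, 1.15 and 0.801 CPM with the KO label and 32.1, 9.29 and 69.4 CPM with the WT label (log2 fold change -4.91 ± 0.62, adjusted p = 0.00128). Its copy Tgtp2 was not called, at 75.8, 32.0 and 45.6 CPM with the KO label and 39.5, 12.5 and 74.4 CPM with the WT label. The coding sequences of Tgtp1-201 and Tgtp2-201 differ at 4 of 1245 bases. A stretch with 2 of these differences, in capitals, is shown for coding bases 616 to 735, since a read that covers neither difference is the same for both genes.
Tgtp1: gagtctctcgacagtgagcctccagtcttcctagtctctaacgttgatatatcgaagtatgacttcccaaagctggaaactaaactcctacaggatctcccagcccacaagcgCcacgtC
Tgtp2: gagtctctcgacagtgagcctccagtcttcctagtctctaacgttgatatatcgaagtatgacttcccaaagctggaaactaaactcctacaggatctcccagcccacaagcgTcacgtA
Tgtp1 took 42.7 to 48.2% of the pair in the WT libraries and 1.73 to 3.48% in the KO libraries. The sum of the pair, 52.3 ± 22.8 CPM with the KO label and 79.0 ± 61.4 CPM with the WT label, overlapped between the labels. Only 18.8% of the 50-base stretches of Tgtp1 are its own, and 79.4% occur in Tgtp2, so the split of this pair is uncertain as well.

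The third called gene there was Olfr56 (chr11:48978889-49135387, plus strand), annotated as an olfactory receptor. It had 134, 85 and 57 counts in the libraries labelled KO and 0, 2 and 0 in those labelled WT. With the WT libraries set to a floor of 3 counts each, it was at least 29.2-fold higher with the KO label (adjusted p = 0.00214). Its span of 156499 bases overlaps 6 other tested genes, among them Tgtp1 and both 9930111J21Rik copies. The overlap is one of spans more than of transcript sequence. Of the stretches in Olfr56 transcripts, compared as above, 98.2% are its own and 1.37% occur in Ifi47. The strand setting of the counting is not given in the sources used here. Reads in the overlap that lie outside these transcripts therefore cannot be assigned with certainty. Of the 20 tested GTPase genes, 5 passed the unadjusted threshold, 9930111J21Rik2 higher and 4 lower. Beside Tgtp1 and 9930111J21Rik1 the lower ones were Gbp7, at 61.3 to 114 CPM with the KO label and 136 to 159 CPM with the WT label, and Iigp1, at 40.2 to 73.5 CPM against 62.3 to 214 CPM. The median over the 20 genes was -0.72. When WT library 3 was left out, 2 passed in each direction and the median was -0.34, while 11.4% of all genes passed higher and 1.73% lower. Without WT library 2, 8 passed in the lower direction, against 113 of all 14241 tested genes. 9930111J21Rik2 and Tgtp1 stayed called in both cases.

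**Figure D3:**
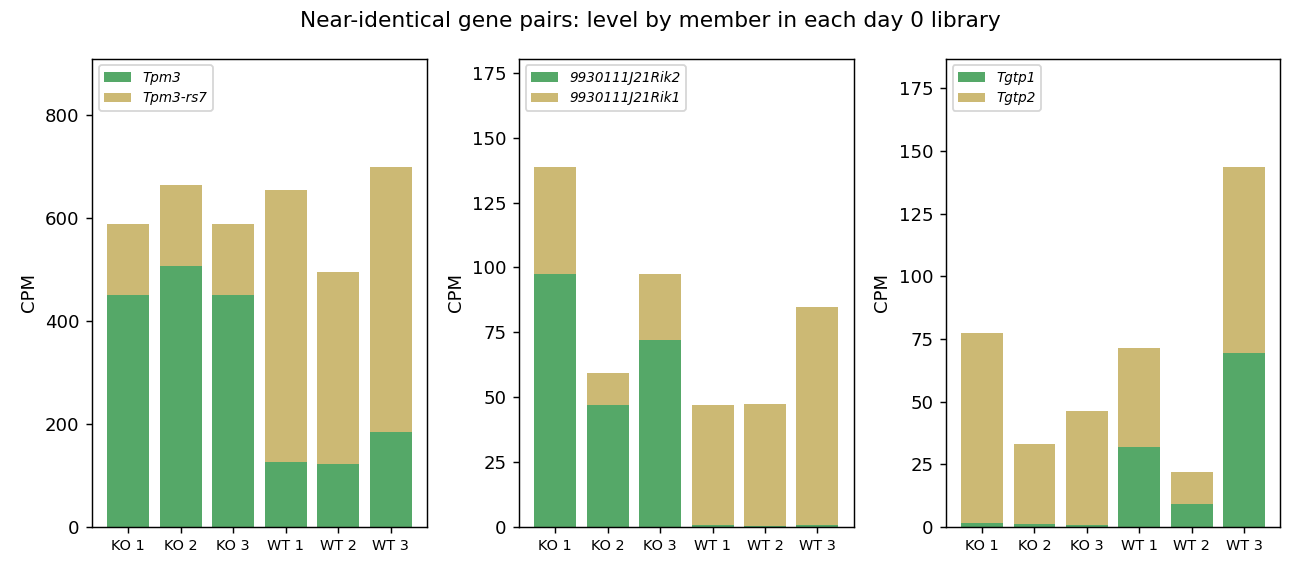
Stacked levels, in CPM, of 3 pairs of near-identical genes in each day 0 library, with 1 bar per library and 1 colour per member. The height of the Tpm3 pair is 613 CPM on average with the KO label and 616 CPM with the WT label, while the Tpm3 share is 76.3 to 76.6% against 19.3 to 26.4%. The 9930111J21Rik2 share is 70.2 to 79.4% with the KO label and at most 1.58% with the WT label, and the Tgtp1 share is at most 3.48% against 42.7 to 48.2%.

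Membrane transporters formed the next set on chromosome 11. Slc36a1 (chr11:55204350-55236330, plus strand) encodes a proton-coupled amino acid transporter of lysosomes and the cell surface. It stood at 195, 191 and 194 CPM in the libraries labelled KO and 36.3, 43.1 and 63.9 CPM in those labelled WT (log2 fold change 2.02 ± 0.35, adjusted p = 0.0370). The KO libraries were close together and the WT libraries spread over a wider range. This call was lost when any single library other than WT library 3 was left out, while the log2 fold change stayed at 1.86 or more. Slc36a2, its paralog next to it, had 15, 25 and 20 counts with the KO label and 0 in every WT library, at least 6.41-fold higher at a floor of 3 counts, and was not called (adjusted p = 0.205).

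Slc22a4 (chr11:53983123-54028090, minus strand) encodes the carrier of ergothioneine and other organic cations. It stood at 11.2, 14.5 and 11.3 CPM with the KO label and 82.9, 63.2 and 62.7 CPM with the WT label (log2 fold change -2.50 ± 0.25, adjusted p = 0.000110). Gm12220 (chr11:53929305-53929476, minus strand), a pseudogene of 172 bases, had 0 counts in the 3 KO libraries and 30, 16 and 22 in the WT libraries, at least 7.97-fold lower (adjusted p = 0.00973). Of its 50-base stretches, 39.8% occur in Slc22a4. The paralogs Slc22a5 and Slc22a21 were not called, at 12.7 to 16.9 against 14.9 to 19.0 CPM for the former and 2.42 to 2.55 against 1.90 to 2.55 CPM for the latter.

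Enzymes and trafficking genes followed. Agpat4 (chr17:12118704-12219645, plus strand), an acyltransferase that makes phosphatidic acid, had 212, 254 and 226 counts with the KO label and 8, 17 and 7 with the WT label. Its log2 fold change was 4.36 ± 0.28 (adjusted p = 1.00e-06), and 99.9% of its 50-base stretches are its own. Nmnat1 (chr4:149467572-149485202, minus strand), which makes NAD in the nucleus, stood at 7.77, 7.23 and 9.03 CPM with the KO label and 44.8, 63.2 and 36.1 CPM with the WT label (log2 fold change -2.58 ± 0.23, adjusted p = 3.43e-05). Of the stretches of Nmnat1, 95.3% are its own.

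Ublcp1 (chr11:44454571-44470498, minus strand), a phosphatase of nuclear proteasomes, stood at 12.1, 13.5 and 13.8 CPM with the KO label and 5.03, 4.49 and 5.36 CPM with the WT label (log2 fold change 1.40 ± 0.16, adjusted p = 0.000522). Sec22c (chr9:121680047-121705490, minus strand), which takes part in transport between the endoplasmic reticulum and the Golgi, stood at 25.9, 26.0 and 26.1 CPM with the KO label and 10.1, 9.67 and 10.5 CPM with the WT label (log2 fold change 1.36 ± 0.17, adjusted p = 0.00128). In both genes the libraries of one label agreed closely.

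The remaining called genes were of low level. Pkd1l2 (chr8:116995679-117082449, minus strand), of the polycystin family, stood at 14.8, 6.69 and 11.8 CPM with the KO label and 1.07, 1.70 and 0.930 CPM with the WT label (log2 fold change 3.16 ± 0.46, adjusted p = 0.00599). Its call was lost without WT library 1. Dclk2 (chr3:86786151-86920852, minus strand), a doublecortin-like kinase of microtubules, stood at 0.499, 0.923 and 1.24 CPM with the KO label and 4.04, 7.89 and 3.15 CPM with the WT label (log2 fold change -2.49 ± 0.43, adjusted p = 0.0329). Its call was lost when any single library other than WT library 3 was left out.

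Cgn (chr3:94760069-94786492, minus strand), which encodes the tight junction protein cingulin, had 0 counts in the 3 KO libraries and 58, 207 and 101 in the WT libraries, at least 42.3-fold lower (adjusted p = 0.00128). The neighbouring gene BC021767, in which 16.4% of the 50-base stretches of Cgn also occur, stood at 9.70, 15.3 and 2.91 CPM with the KO label and 14.2, 50.9 and 23.3 CPM with the WT label and was not called. Gm13767 (chr2:90358171-90383161, minus strand), an unprocessed pseudogene, had 0 counts in the KO libraries and 137, 187 and 193 in the WT libraries, at least 59.7-fold lower (adjusted p = 2.76e-05). Only 0.85% of its 50-base stretches are its own. The pseudogene Gm13768, in which 59.1% of them also occur, was lower in every KO library at 17.5, 17.2 and 17.2 CPM against 21.9, 27.1 and 18.6 CPM, and was not called (log2 fold change -0.38 ± 0.23, adjusted p = 0.761). The gene Ptprj, a receptor phosphatase, was not called either, at 239 to 378 CPM with the KO label and 302 to 392 CPM with the WT label. 5830417I10Rik (chr3:88775216-88825587, plus strand), a pseudogene that shares 68.4% of these stretches with Gon4l, stood at 29.2, 27.5 and 23.4 CPM with the KO label and 2.47, 3.64 and 2.86 CPM with the WT label (log2 fold change 3.15 ± 0.22, adjusted p = 1.84e-06). Gon4l itself stood at 39.6 to 42.8 CPM with the KO label and 37.5 to 47.0 CPM with the WT label.

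The called genes were unevenly placed on the chromosomes. Of the 17, 4 lay on chromosome 3 between Dclk2 and Cgn (86786151 to 94786492) and 7 on chromosome 11 between Ublcp1 and Slc36a1 (44454571 to 55236330). These 2 stretches were bounded after the calls were seen and are given as a description. Together they held 222 tested genes, of which the 11 called genes are 4.95%. Among the other 211, 20 passed the unadjusted threshold (9.48%), 10 in each direction, and 37 did not overlap between the labels (17.5%). Over all tested genes these shares were 3.95% and 10.1%, as given above. Among the 20 were S100a8 and S100a9, which belong to the neutrophil list read below. BC021767 and 9930111J21Rik1, which share sequence with called genes, were among the 20 as well.

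The neighbours that passed the unadjusted threshold moved in both directions. Beside Cgn these included Selenbp2, a selenium-binding protein, at 2.57, 3.69 and 1.46 CPM with the KO label and 8.33, 27.4 and 8.80 CPM with the WT label. Beside Slc22a4, Lyrm7, an assembly factor of mitochondrial complex III, stood at 1.43, 1.08 and 0.946 CPM against 2.06, 3.56 and 5.29 CPM, while Pdlim4, an actin-associated protein, stood at 178, 192 and 170 CPM against 59.3, 103 and 66.4 CPM. Beside Pkd1l2 on chromosome 8, Gcsh of the glycine cleavage system stood at 24.7, 33.3 and 21.8 CPM against 11.05, 11.2 and 15.1 CPM. Beside Sec22c on chromosome 9, Higd1a, a mitochondrial protein of the hypoxia response, stood at 12.6, 10.4 and 14.3 CPM against 7.09, 7.35 and 7.15 CPM. Each of these 5 genes separated the labels and none was called, and they were named after their values were seen. Within 1 Mb of Agpat4, Gm13767 and Ublcp1 no other gene passed that threshold, among 10, 24 and 4 tested.

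The differences were also read in the libraries with RANKL, whose levels are not part of the day 0 difference although they share its estimate of the spread. The same 17 genes kept the sign of their log2 fold change in 17 cases on RANKL day 1 and in 16 on day 3, and 14 and 13 of them were called again on those days. Over all genes, 16 were called on day 1 (0.112%) and 20 on day 3 (0.14%). For 13 of the 17, all 9 libraries labelled KO lay above, or all below, the 9 labelled WT. The day 0 libraries among these are the ones on which the 17 were selected. The share of all tested genes with such a separation was not counted, so no conclusion is drawn from it. Tpm3 had a log2 fold change of 1.91 on both days, and Agpat4 had 4.07 on day 1 and 3.81 on day 3. These libraries may come from the same animals as those of day 0, which the labels do not say. Of the 3 WT libraries of day 1, 2 carry the number 1, in the single and the double hyphen style, and may also share a source. Their counts differed by more than sampling noise, with a chi-square of 167 per degree of freedom over genes.

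A few differences were smaller with RANKL. Dclk2 had a log2 fold change of -1.42 on day 1 and 0.06 on day 3, at 3.16 CPM with the KO label and 3.02 CPM with the WT label on day 3. Tgtp1 went from -4.91 to -3.08 and -2.71, and Pkd1l2 from 3.16 to 2.61 and 1.71. The test of the change itself, the label difference on a later day minus that on day 0, called none of the 14241 genes for either day by edgeR, while 527 genes for day 1 and 769 for day 3 had an unadjusted p under 0.05. Among the 17 genes, 2 and 5 did, and for Dclk2 on day 3 the unadjusted p was 0.000511. The 17 genes were selected on the day 0 difference that this test subtracts. Smaller differences on later days follow in part from that selection, so no conclusion is drawn from these p-values.

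**Figure D4:**
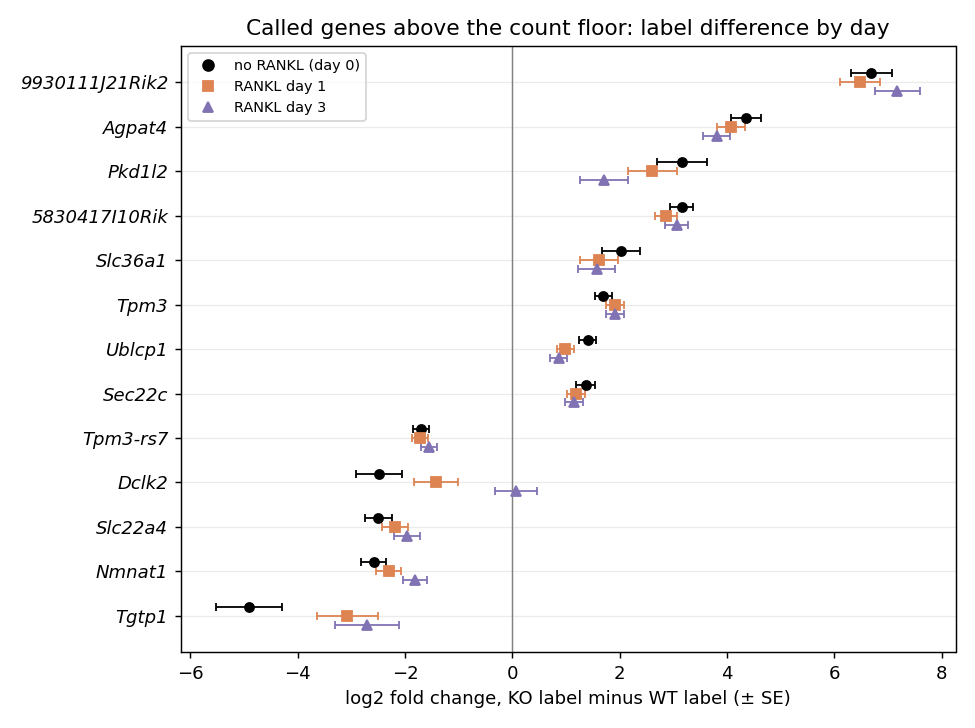
Log2 fold change, KO label minus WT label, of the 13 called genes above the count floor, on day 0 (black), RANKL day 1 (orange) and RANKL day 3 (purple), with bars of 1 SE from the fit. Most genes keep their place on all 3 days. Dclk2 moves from -2.49 to 0.06, and 9930111J21Rik2 stays between 6.48 and 7.17.

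Beyond the called genes, lists of genes for cell types and pathways were read by their counts and medians. Neutrophil genes were higher with the KO label without any call. All 16 tested members had a positive log2 fold change, with a median of 1.85, against 53.8% positive over all genes, and 8 passed the unadjusted threshold (2.89% of all genes did so in this direction). The summed level was 6655, 4197 and 13660 CPM in the KO libraries and 2991, 801 and 3471 CPM in the WT libraries. KO library 3 was the highest and WT library 2 the lowest, and the labels did not overlap. Lcn2, a siderophore-binding granule protein, stood at 452, 257 and 896 CPM against 172, 47.7 and 195 CPM. Cxcr2, the chemokine receptor of neutrophils, stood at 38.9, 14.1 and 102 CPM against 14.8, 3.87 and 19.5 CPM. Ly6g stood at 19.9, 7.84 and 33.7 CPM against 4.29, 1.93 and 9.44 CPM, and Retnlg at 199, 101 and 417 CPM against 65.4, 22.2 and 104 CPM. No member passed the threshold once KO library 3 or WT library 2 was left out, although all 16 stayed positive, with medians of 1.16 and 1.42.

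Eosinophil, basophil and mast cell genes had the same sign. All 7 tested members were positive with a median of 1.69, and 1 passed the threshold. That gene was Prg2, the major basic protein of eosinophil granules, at 78.4, 22.5 and 201 CPM with the KO label and 22.6, 3.56 and 25.9 CPM with the WT label. It did not pass without KO library 3, where no member of the list passed. Without WT library 3, 4 members passed, all higher (11.4% of all genes did so in this direction).

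Platelet and megakaryocyte genes, a list added after the values were seen, were mostly higher with the KO label. Of 19 tested members 18 were positive, 11 passed the unadjusted threshold (2.89% of all genes did so in this direction), none was called, and the median was 1.86. The summed level was 288, 146 and 499 CPM in the KO libraries and 131, 121 and 415 CPM in the WT libraries, so the labels overlapped through WT library 3. A filter of 5 CPM or more in 3 or more libraries kept 6 members, of which 4 passed. Itga2b, the fibrinogen receptor chain of platelets, stood at 24.0, 13.4 and 30.4 CPM with the KO label and 8.08, 1.93 and 7.22 CPM with the WT label. Ppbp, a platelet chemokine, stood at 33.7, 15.7 and 48.9 CPM against 13.3, 1.47 and 9.22 CPM, and Gp1bb, of the von Willebrand factor receptor, at 10.8, 2.77 and 17.3 CPM against 2.06, 0.697 and 1.57 CPM. The exception in sign was Pf4, at 113, 42.8 and 264 CPM against 54.5, 101 and 361 CPM. Leaving out single libraries left 7 to 13 members past the threshold.

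**Figure D5:**
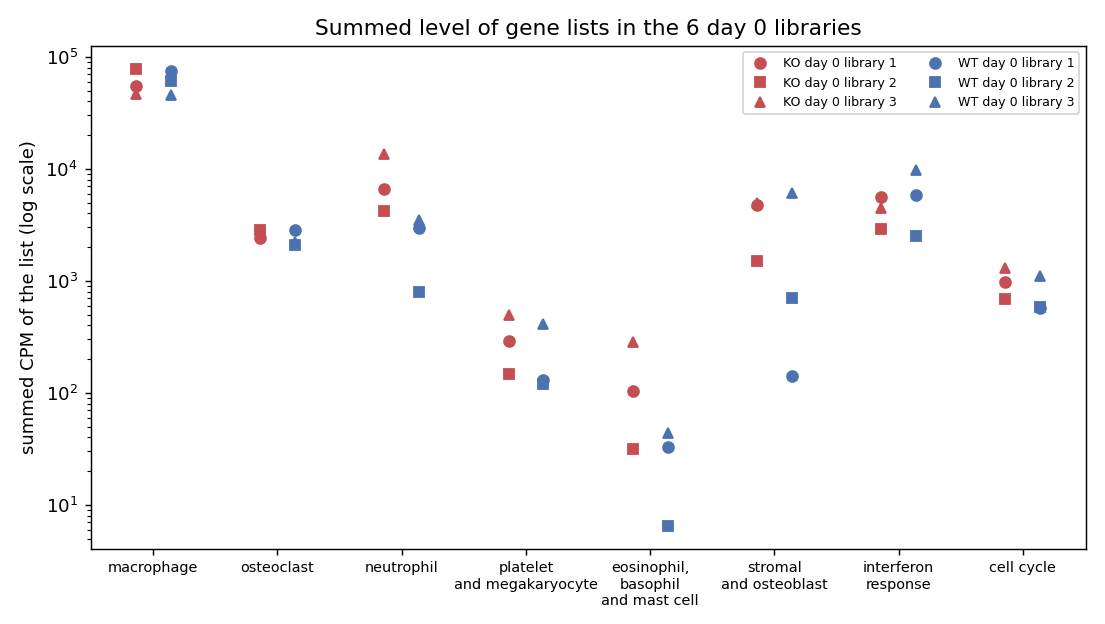
Summed CPM (log scale) of 8 gene lists in each day 0 library, with the KO label in red and the WT label in blue. The neutrophil sums do not overlap, at 4197 to 13660 CPM with the KO label and 801 to 3471 CPM with the WT label, while the stromal sums run from 142 to 6083 CPM within the WT label alone. The macrophage sums, 45411 to 78298 CPM, overlap between the labels.

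Osteoclast genes were in part higher with the KO label. Of 20 tested members of the list, 13 were positive and 4 passed the unadjusted threshold, all higher with the KO label, with none called and a median of 0.40. Itgb3, the integrin chain by which osteoclasts and platelets attach and the partner of Itga2b, stood at 48.6, 23.6 and 72.6 CPM with the KO label and 20.1, 9.44 and 21.5 CPM with the WT label. Mmp9, a collagenase of osteoclasts that neutrophils also store, stood at 356, 135 and 566 CPM against 112, 61.5 and 198 CPM. Acp5, the tartrate-resistant phosphatase, stood at 66.1, 70.0 and 89.9 CPM against 54.6, 24.0 and 51.6 CPM, and Car2, carbonic anhydrase, at 1.35, 1.46 and 2.40 CPM against 0.495, 0.464 and 1.14 CPM. Ctsk, cathepsin K, did not separate the labels, at 19.7 to 28.0 CPM against 7.20 to 25.6 CPM, and Calcr, the calcitonin receptor, had 0 counts in all 6 libraries. Without KO libraries 1, 2 or 3, the members past the threshold numbered 3, 3 and 1. Without WT libraries 1, 2 or 3 they numbered 2, 1 and 5. Mmp14 was gained without WT library 3, where the median was 0.53 and 11.4% of all genes passed in the higher direction. The part of neutrophil and platelet cells in these values was not tested.

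Of the genes of M-CSF and RANK signalling, ligands included, none of 33 was called or passed the unadjusted threshold, with a median of 0.03. In the fit without WT library 3, 4 of them passed in the higher direction (11.4% of all genes did so), among them Csf1, which encodes M-CSF itself, and Tnfsf11, which encodes RANKL, and the median was 0.01. The smallest p in that list with all 6 libraries belonged to Rel, a subunit of NF-kappaB, at 48.6 to 53.2 CPM with the KO label and 63.4 to 76.5 CPM with the WT label. Nfatc1, the transcription factor that osteoclasts need, stood at 84.1 to 100 CPM against 107 to 114 CPM (adjusted p = 0.848).

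The Hippo pathway, a kinase cascade that keeps the coactivator YAP1 out of the nucleus, was read with its targets. None of its 29 tested genes was called or passed the unadjusted threshold, and the median was -0.04. Lats1, a kinase that phosphorylates YAP1, stood at 45.2, 41.8 and 44.3 CPM with the KO label and 51.3, 57.3 and 54.6 CPM with the WT label (log2 fold change -0.31 ± 0.08, adjusted p = 0.382). Taok1, an upstream kinase, stood at 101, 102 and 99.2 CPM against 112, 150 and 129 CPM. Both separated the labels by less than the fold change that the threshold asks for. Yap1 itself spread from 0.824 to 24.0 CPM within the WT label and from 8.84 to 23.2 CPM within the KO label. Once WT library 3 was left out, 11 of the 29 genes passed the threshold in the higher direction, while 11.4% of all tested genes did so. Yap1 and its binding partner Tead2 were among the 11. None of the 29 was called, and the median was 0.08.

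YAP1 targets followed the stromal genes. Of 21 tested, 17 were positive and 1 passed the unadjusted threshold, Nt5e, an ectonucleotidase, at 4.71, 2.15 and 6.77 CPM against 0.989, 1.01 and 3.15 CPM. Cyr61 stood at 235, 46.1 and 221 CPM with the KO label and 5.28, 31.4 and 150 CPM with the WT label. Without WT library 3 the members past the threshold rose from 1 to 11, and the median from 0.44 to 1.53. Over all tested genes, 11.4% passed in the higher direction in that fit. The stromal and osteoblast list behaved alike, with 0 of 19 members past the threshold and a median of 0.67 in all 6 libraries, but 18 past it, 2 of them called, and a median of 3.08 without that library. Col1a1, the chain of type I collagen, stood at 1394, 380 and 1443 CPM with the KO label and 29.2, 217 and 2011 CPM with the WT label. The part of stromal cells in the level of YAP1 targets was not tested.

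Trim46, the ubiquitin ligase followed by the study, was at a low level. It stood at 0.642, 0.461 and 1.31 CPM with the KO label and 0.247, 0.0774 and 1.22 CPM with the WT label (log2 fold change 0.62 ± 0.66, adjusted p = 0.881). Leaving out WT library 3 gave a log2 fold change of 2.27 ± 0.65, past the unadjusted threshold and not called (adjusted p = 0.0867). A list of 12 genes was drawn from the quantitative PCR of the study, with Stk4 and Mst1 both taken for the name Mst1. Itgb3 and Mmp9 passed the unadjusted threshold and none of the 12 was called. Without WT library 3 Yap1, Cyr61 and Trim46 also passed, which made 5, all higher, while 11.4% of all tested genes passed in that direction. Stk4, the Hippo kinase also known as MST1, stood at 69.8 to 188 CPM against 185 to 210 CPM. Dcstamp, needed for the fusion of precursors, was below 1 CPM in every day 0 library.

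Interferon response genes were mostly lower with the KO label, without any call. Of 23 tested, 21 had a negative log2 fold change, none passed the unadjusted threshold (1.06% of all genes did so in this direction), and the median was -0.52. Irf7, a transcription factor of the response, stood at 662, 190 and 621 CPM with the KO label and 423, 144 and 1184 CPM with the WT label. The summed level was 5665, 2935 and 4484 CPM against 5882, 2543 and 9861 CPM, so that WT library 1 lay just above the KO range and WT library 3 far above it. Without it the median turned to 0.05, with 13 of 23 members positive.

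Cell cycle genes were positive in 22 of 23 cases with a median of 0.57, and none was called or passed the unadjusted threshold. Their summed level was 975, 689 and 1301 CPM with the KO label and 570, 583 and 1099 CPM with the WT label. Without WT library 3, 6 members passed, all higher (11.4% of all genes did so in this direction), and the median was 1.25. Genes of dendritic cells and MHC class II were positive in 13 of 14 cases, again with none past the threshold. Cd74, the invariant chain, stood at 614, 388 and 921 CPM against 538, 139 and 315 CPM.

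In the other lists few members passed the threshold. None of 20 inflammatory and 21 cholesterol and lipid genes did so, and 1 of each did without WT library 3, Nos2 in the higher and Abca1 in the lower direction. Of the macrophage list, Marco, a scavenger receptor, then passed in the lower direction. Over all tested genes, the fit without WT library 3 put 11.4% past the threshold in the higher and 1.73% in the lower direction. These shares apply to every count without that library given below. Among the cholesterol and lipid genes, Abca1, the cholesterol exporter, stood at 665, 779 and 527 CPM with the KO label and 798, 1307 and 724 CPM with the WT label. Insig1, which holds back sterol synthesis, stood at 105, 124 and 117 CPM against 167, 152 and 123 CPM. Of 12 stress genes 1 passed, the immediate early gene Egr1, at 72.9, 18.8 and 62.6 CPM against 13.8, 24.4 and 13.7 CPM, with KO library 2 inside the WT range. Of 18 integrin genes 15 were positive, with a median of 0.25. Itgb3, given above, passed in the higher direction, and 5 did so without WT library 3. Itga4, a chain of the fibronectin and VCAM1 receptor, passed in the lower direction, at 241, 228 and 192 CPM against 367, 487 and 229 CPM. None of 11 B cell, 5 T and NK cell or 6 erythroid genes passed, while 2 B cell genes, Ebf1 and Cd79b, did without WT library 3. Of the Zmat family, 4 members were tested and none passed, and Zmat2 stood at 70.2 to 107 CPM against 69.0 to 89.0 CPM.

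Outside these lists, Gdf3 and Sntb2 had adjusted p-values a little above the threshold, and they were named after their values were seen. Gdf3, a growth factor of the TGF-beta family, stood at 59.3, 128 and 50.5 CPM with the KO label and 12.2, 1.01 and 6.65 CPM with the WT label (log2 fold change 3.58 ± 0.68, adjusted p = 0.0734). Sntb2, a syntrophin, stood at 28.1, 18.8 and 20.0 CPM against 39.0, 47.7 and 45.2 CPM (log2 fold change -0.98 ± 0.18, adjusted p = 0.0523). Both separated the labels in all 6 libraries.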

How the data were processed

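The authors deposited 1 table with a whole-number read count and an FPKM value per gene and library. The deposited FPKM values came from StringTie and Ballgown. The submitters' notes name GRCm38.p4 and mm10. The aligner and the counting program are not given in the sources used here. FPKM values were not used for any value printed, and columns with no sample numbered 0. Gene positions are those of the table.

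The quasi-likelihood test of edgeR 4.0.16 (R 4.3.3) was run on all 18 libraries in 6 groups of label and day, after filterByExpr and TMM scaling. P-values are 2-sided and adjusted by the Benjamini-Hochberg method over 14241 genes. SE were taken from the F statistic. Where no library of a group exceeded 3 counts, that group was set to 3 counts per library for a bound, and floors cover counting error only. The 3 counts correspond to 0.214 to 0.247 CPM. Annotation and transcripts were from GENCODE M21, and sequences are from there. The script was tested on simulated data. No pair of libraries of one group agreed within sampling noise.

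The members and lists were chosen with earlier results of these data known. The genes named were Zmat1, every called gene, the quantitative PCR genes, and in each list up to 4 members with the smallest unadjusted p under 0.05 and the most abundant member. Alternatives were 2 filters, 2 scalings, DESeq2 1.42.0, day 0 libraries only, the replicate number as a block, the title style as covariate, and each library left out.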

Additional observations from a re-analysis of the deposited data

How the results depend on the processing

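The direction of all 17 called genes was the same under every alternative that tested them. The count of called genes was 17 under DESeq2 size factors and under total counts, 18 without a filter and 15 with the strict filter (5 CPM or more in 3 or more libraries). It was 64 with the DESeq2 Wald test, which included all 17, and 6 in a fit of only the 6 day 0 libraries, with all 6 among the 17. Without a single library it ran from 15 to 197, the highest being without WT library 3. The genes past the unadjusted threshold numbered 339 under the strict filter, which tested 11480 genes, and 311 to 1875 without a single library, with 311 without WT library 2, 355 without KO library 3 and 1875 without WT library 3. The causes of these shifts were not tested. Zmat1, which was not called under any of them, turned sign without KO library 2 (-0.15) and without WT library 2 (-0.04), and its log2 fold change ran from -0.15 to 0.89 without a single library.

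Same-number libraries of the 2 labels did not deviate together, with correlations of -0.39, 0.17 and 0.32 for numbers 1, 2 and 3, and the labels do not say that a number marks a shared source. Over all pairs of a KO and a WT library the lowest correlation was -0.57, for KO library 2 with WT library 3. The highest was 0.52, for KO library 2 with WT library 1, which share the double hyphen. With the replicate number as a block, all 18 libraries gave 17 called genes and 693 past the unadjusted threshold. The same block on only the 6 day 0 libraries gave 1 called gene and 566 past it. Titles come in 2 styles, and the style as a covariate gave 22 called genes, all 17 among them. The fit of only the 13 libraries with a single hyphen was chosen after seeing the data. The counts of the 17 genes called again on days 1 and 3 stayed within 1.5 times under both scalings, the block and the title style, tried after seeing the data.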

Other observations

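Immunoglobulin variable segments, grouped by name after the values were seen, were counted more often with the KO label. Of 350 segments, 169 had no count on day 0 and 83 were tested. Of these 83, 80 had a positive log2 fold change and none was called. The unadjusted threshold was passed by 35, while 2.89% of all genes did so in this direction. A segment absent from the WT libraries can be tested only through its counts elsewhere. Igkv12-44, for example, had 17, 63 and 8 counts with the KO label and 0 in every WT library. The numbers of positive segments and of segments past the threshold therefore depend in part on which segments could be tested. For that reason the share over all genes is not a like measure for them. With the strict filter 5 segments were tested, all 5 were positive, and 1 passed the threshold. Their summed level was 268, 286 and 25.6 CPM in KO libraries 1 to 3 and 34.3, 2.48 and 45.1 CPM in WT libraries 1 to 3, so the labels overlapped through KO library 3. Ighm, the constant segment of the early heavy chain, stood at 252 to 358 CPM with the KO label and 261 to 400 CPM with the WT label, and none of 11 B cell genes passed the threshold. Leaving out single libraries left 16 to 48 segments past it. Segments are near-identical to one another in places, so reads may be split between them.

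Genes lower with the KO label were longer than those higher with it. The median exonic length was 5462 bases for the 151 genes past the unadjusted threshold in the lower direction, 3179 bases for those higher, and 4275 bases over all tested genes with a length. Among the lower genes were Kmt2a and Kmt2c, histone methyltransferases, at 65.3, 24.8 and 62.4 CPM against 81.4, 150 and 89.6 CPM for Kmt2a and 63.9, 58.2 and 51.0 CPM against 79.3, 137 and 84.0 CPM for Kmt2c. The 1421 longest genes had a median log2 fold change of -0.10, and their median level against the mean of the 6 libraries was -0.01, -0.09 and -0.06 in KO libraries 1 to 3 and -0.01, 0.12 and 0.06 in WT libraries 1 to 3.

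Pancreatic hormone genes were counted in 2 of the 6 libraries. Ins2 had 156 counts in KO library 2 and 96 in WT library 1, and 0 in the other 4, and Ins1 and Gcg followed the same pattern. These 2 libraries are the day 0 libraries whose titles hold a double hyphen.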
